A study of Mus musculus with 12 samples.

Results

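The transcriptome of brain microglia from mice given an allogeneic transplant was compared, across all genes, with that of microglia from mice that received no transplant. The comparison takes the 4 libraries labelled allogeneic and the 4 labelled control, 8 of the 12 libraries of the series. Recipients were wild-type Balb/c mice that had been lethally irradiated and then given bone marrow (5000000 cells) together with 300000 T cells, and their brains were taken after perfusion on day 14, when, per the labels, graft-versus-host disease (GvHD) peaks. The allogeneic group received marrow and T cells from a genetically different donor. No source used here gives the donor strain. The control group was wild-type Balb/c mice labelled as untransplanted. The other 4 libraries, labelled syngeneic, came from Balb/c mice irradiated and grafted with the same numbers of genetically matched cells. Each group held 4 mice, microglia were sorted by flow cytometry with markers that the labels do not name, and only RNA with an integrity value of 8 or above was sequenced. Because control mice had no transplant, this contrast sums irradiation, graft and GvHD, whose parts cannot be told apart within it.

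Microglia are the resident macrophages of the brain and carry a set of surface receptors and transcription factors that distinguish them from blood-derived macrophages. In GvHD, donor T cells attack recipient tissues, and the interferons released in that reaction act on macrophages through receptors that switch on genes of antigen presentation, antiviral defence and chemokine production. Irradiation damages DNA, which activates the transcription factor p53, and can empty the niche that proliferating microglia or marrow-derived cells then fill.

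All 12 genes listed as markers of the sorted microglia were detected in every library compared, but their summed share of the counts was lower after the allogeneic transplant. The share was 5.40% to 5.81% in the controls and 2.88% to 2.95% in the allogeneic libraries, with no overlap (exact permutation test over the 4 and 4 libraries, two-sided, p = 0.0286, adjusted p = 0.0338 over 45 shares; 0.0286 is the smallest p that this design can give). Csf1r, the receptor for the growth factors that microglia need to survive, had 11679, 10473, 12925 and 10885 CPM (counts scaled to a common library size) in the controls and 2682, 2917, 3089 and 2829 CPM in the allogeneic libraries. Every allogeneic library was below every control for Csf1r, which fell with a log2 fold change of -2.0 ± 0.08 (SE; edgeR, adjusted p = 1.7e-13). Tmem119, a membrane protein used to identify microglia, had 4590.4, 4140.3, 3570.4 and 3582 CPM in the controls against 1089, 1175, 1106 and 1185 CPM, also without overlap, and a log2 fold change of -1.80 ± 0.08 (adjusted p = 5.9e-13). The Fc receptor-like gene Fcrls fell from 893 ± 133 to 236 ± 42.2 CPM (SD, n = 4). The fractalkine receptor Cx3cr1 fell by 0.96 and the transcription factor Sall1, which maintains microglial identity, fell by 0.98 on the log2 scale. The purinergic receptor P2ry12 went from 13772, 12182, 10971 and 11396 CPM to 9654, 8942, 8759 and 8967 CPM, a smaller fall of 0.41, and Gpr34 fell by 0.48. Aif1, the gene of the calcium-binding protein IBA1, ran the other way, from 585, 540.1, 495 and 542 to 1760.0, 1991, 1948 and 1789 CPM, with a log2 fold change of 1.79 ± 0.07 (adjusted p = 9.9e-14). The remaining markers were called higher by amounts that depend on the scaling, and with library totals Aif1 was the 1 marker still called higher. The fold changes were 0.45 for Ptprc (CD45), or 0.08 when only library totals were used, and in the same order Siglech stood at 0.25 and -0.12, and the integrin Itgam at 0.20 and -0.17. Itgam also lost its call when control replicate 2 was left out (adjusted p = 0.0748).

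Total counts lay between 32652208 and 45439607 in the controls and between 35559202 and 42641198 in the allogeneic libraries. Of 24328 gene symbols in the table, 12695 had enough counts to be tested. At an adjusted p under 0.05, 3576 genes were higher and 3697 lower in the allogeneic libraries, which is 28.2% and 29.1% of those tested and 57.3% together. The 4 allogeneic values did not overlap the 4 control values for 53.8% of the genes, 26.2% higher and 27.7% lower. With only library totals as scaling, the split moved to 2453 higher (19.3%) and 5259 lower (41.4%), and the median change over tested genes moved on the log2 scale from -0.07 to -0.44. The difference arises from the scaling factors, which were 1.10 to 1.16 in the controls and 0.844 to 0.893 in the allogeneic libraries. All changes given here use the trimmed-mean scaling unless stated otherwise, and gene lists are described by their counts and medians beside these values. Changes of at least 2-fold were called for 1940 genes upward and 2264 downward, of at least 4-fold for 817 and 795, and of at least 16-fold for 383 and 266.

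**Figure D1:**
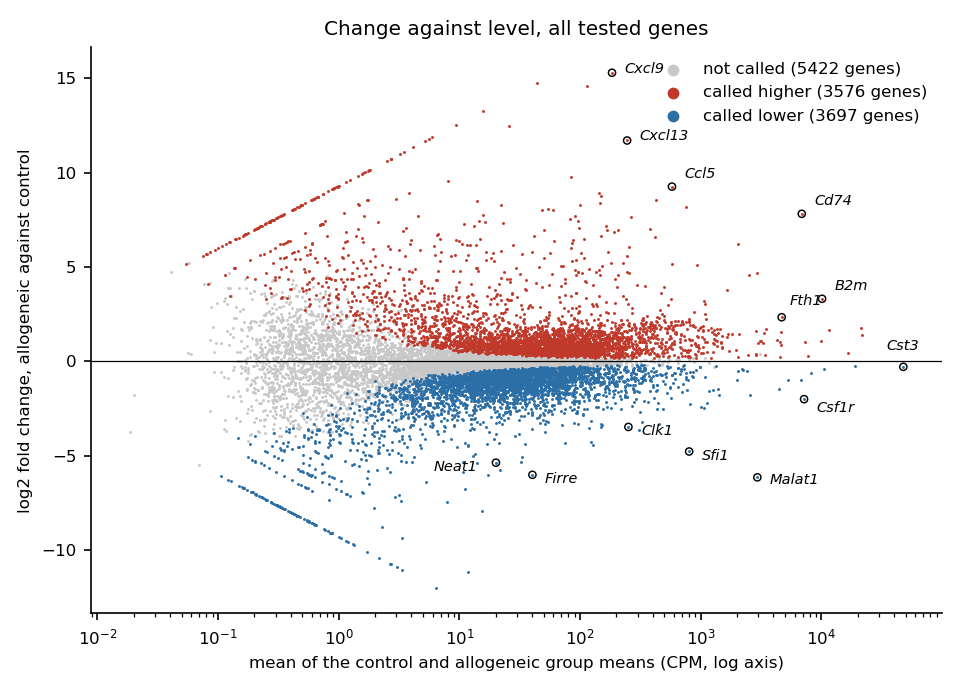
Log2 fold change of each tested gene, allogeneic against control, plotted against its mean CPM over both groups on a log axis, with called genes in colour and 13 genes ringed. Cxcl9, Cxcl13, Ccl5 and Cd74 lie far above 0, Malat1, Sfi1, Firre and Neat1 far below it, and the straight edges at low levels are genes with no counts in 1 group, whose fitted values have no fixed size.

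As a measure of how much of the library changed, the share of counts that would have to move between genes to turn one library into another was computed for every pair. It was 30.4% to 32.9% (median 31.6%) over the 16 pairs of a control and an allogeneic library. Within a group it was 5.73% to 7.16% among the controls and 4.99% to 5.59% among the allogeneic libraries. Pairs of a control and a syngeneic library, which share the same controls, lay between 21.5% and 24.9%. Between group means, the 10 genes with the largest gains held 28.8% of the summed gain of 31.1 percentage points, and the 10 with the largest losses held 25.0% of the summed loss.

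The most abundant transcripts took a larger part of the allogeneic libraries. The 10 most abundant genes of each library held 17.9% ± 0.138 (SD, n = 4) of the counts in the controls and 19.0% ± 0.281 in the allogeneic libraries, and the 100 most abundant held 36.6% ± 0.559 and 40.8% ± 0.315. The 500 most abundant held 55.5% ± 0.673 and 61.9% ± 0.395. None of these shares overlapped between the groups (exact permutation p = 0.0286 for each, adjusted p = 0.0338). In the syngeneic libraries the 10 most abundant genes held 20.9% ± 0.617, above both other groups.

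Cst3, which encodes the cysteine protease inhibitor cystatin C, led in both groups. Its share of the counts was 5.93% ± 0.251 in the controls and 3.77% ± 0.113 in the allogeneic libraries. In CPM it read 56511, 52596, 50019.9 and 50597 in the controls and 43824, 41359, 44636 and 42464 in the allogeneic libraries, and the groups did not overlap, with a log2 fold change of -0.28 ± 0.05 (adjusted p = 0.00019). Ctss, the lysosomal protease that trims the class II invariant chain, moved from the eighth place to the second, from 1.09% ± 0.0466 to 2.90% ± 0.120 of the counts, and rose by 1.78 ± 0.05 on the log2 scale. The cytoskeletal genes Actb and Tmsb4x rose by 1.42 and 1.66, Actb from 1.34% ± 0.0890 to 2.76% ± 0.127. Per kilobase of exon, scaled to the same total in every library, where levels of different genes can be compared, Cst3 stood at 137854 ± 4067 in the controls and 71852 ± 2436 in the allogeneic libraries. On that scale Ctss rose from 23619 ± 944 to 51523 ± 2091, and B2m, the light chain of MHC class I, moved from 7126 ± 253 in the twelfth place to 45194 ± 1394 in the third. Cd74 reached 17192 ± 1496 and the chemokine Ccl12 15849 ± 2244, the seventh and the eighth places among allogeneic levels.

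Rn45s, the precursor of ribosomal RNA, held 1.59% ± 0.263 of the control counts and 1.68% ± 0.183 of the allogeneic counts. It was called higher at a log2 fold change of 0.46 ± 0.12, and the change was 0.08 with library totals only. The lysosomal aspartyl protease Ctsd read 22579.5, 19094, 21940.5 and 18519.5 CPM in the controls and 15777, 18644, 17213 and 17437 CPM in the allogeneic libraries, so that 1 allogeneic library exceeded 1 control, with a log2 fold change of -0.25 ± 0.07 (adjusted p = 0.0082). With an offset for GC content and exon length, chosen after seeing the data, the change of Ctsd was 0.01 (adjusted p = 0.88). Lgmn, a lysosomal protease, rose by 1.02 ± 0.06.

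**Figure D2:**
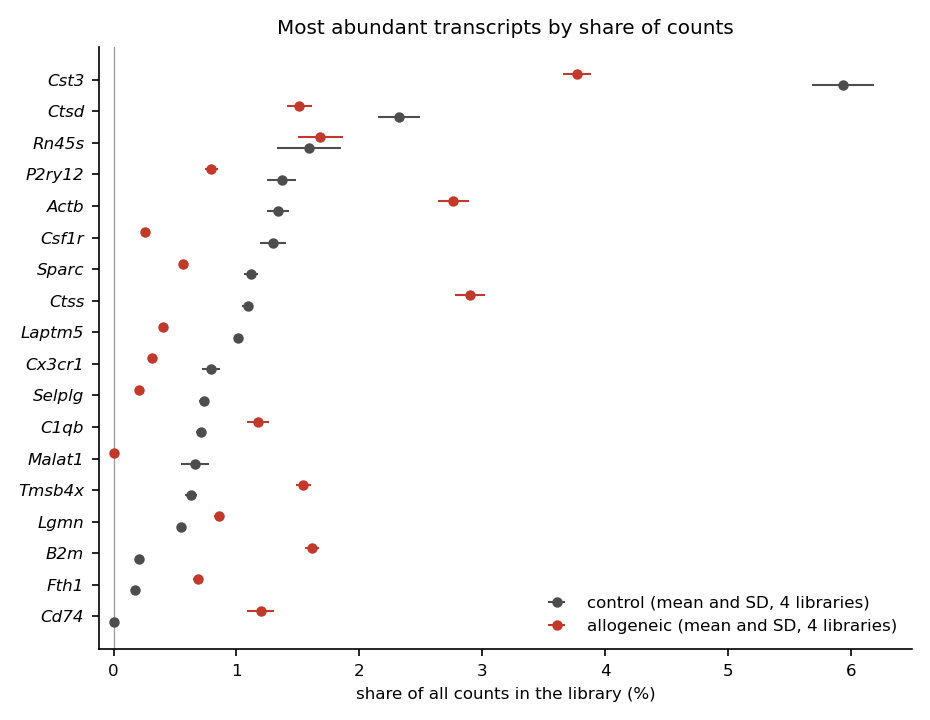
Share of all counts (%) of the most abundant genes described, as group mean with SD over 4 control (grey) and 4 allogeneic (red) libraries. Cst3 leads in both groups, while B2m, Fth1 and Cd74 are near the bottom of the control shares and clearly higher in the allogeneic libraries.

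The 10 largest gains of share, or of CPM on library totals, were in Ctss, Actb, B2m, Cd74, Tmsb4x, Fth1, H2-K1, C1qb, H2-D1 and Ccl12. On the trimmed-mean scale Rn45s and Lgmn took the places of H2-D1 and Ccl12. Cd74, which encodes the chaperone of newly made MHC class II molecules, read 53.8, 56.9, 61.4 and 69.4 CPM in the controls and 11746, 14793, 14855 and 13361 CPM in the allogeneic libraries. The lowest allogeneic value lay far above the highest control, and the log2 fold change was 7.82 ± 0.15 (adjusted p = 4.2e-16). In the syngeneic libraries Cd74 stood at 201 ± 34.8 CPM (SD, n = 4). B2m read 1986, 1858, 1739.9 and 1779 CPM in the controls and 17834, 19082, 19395 and 17354 CPM in the allogeneic libraries, again without overlap, a log2 fold change of 3.32 ± 0.07. The ferritin heavy chain Fth1, which stores iron, had 1572, 1428, 1489 and 1680.0 CPM in the controls and 7161, 7724, 8129.6 and 8300.1 CPM in the allogeneic libraries, and rose by 2.34 ± 0.06. The 10 largest losses of share were in Cst3, Csf1r, Ctsd, Malat1, Laptm5, P2ry12, Sparc, Selplg, Cx3cr1 and Tmem119, all but Ctsd, Malat1 and Laptm5 members of the list of homeostatic microglia genes described further on. Selplg, the selectin ligand PSGL-1, fell from 6502 ± 488 to 2396 ± 356 CPM, a log2 fold change of -1.44 ± 0.09. Sparc, a matrix glycoprotein, fell by 0.61 and Laptm5, a lysosomal membrane protein of blood cells, by 0.96 on the log2 scale.

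The chemokines, secreted proteins that guide white blood cells, made up 5 of the 10 largest rises, taken among called genes above a mean log2 CPM of 2 that did not overlap between the groups. Of 20 tested chemokines 18 rose and 0 fell (1 with library totals), with a median log2 fold change of 5.58. Cxcl9, a T cell attractant induced by interferon-gamma, had 0.0248, 0, 0 and 0 CPM in the controls and 351, 347, 441 and 333 CPM in the allogeneic libraries. The control value came from 1 count in control replicate 1, against 50883 counts over the allogeneic libraries, a ratio of 61786 with a 95% counting interval from 11089 to 2440490.0, and without that library Cxcl9 had no control count. Cxcl13, which attracts B cells, read 0, 0.186, 0.118 and 0.284 CPM in the controls and 453, 622, 483 and 404 CPM in the allogeneic libraries, a log2 fold change of 11.71 ± 0.36 (adjusted p = 6.8e-13). Ccl5, made by T cells, natural killer cells and activated macrophages, read 1.39, 2.02, 2.61 and 1.37 CPM in the controls and 1077, 1283, 1040.1 and 1213 CPM in the allogeneic libraries, a log2 fold change of 9.27 ± 0.19. Ccl12, a ligand for the monocyte receptor CCR2, rose from 54.7 ± 6.30 to 4042 ± 693 CPM. In all 4 of these chemokines the allogeneic libraries stood far above the controls, and the syngeneic means lay between, at 4.63 ± 2.28, 28.1 ± 7.25, 56.3 ± 6.99 and 1118 ± 391 CPM. Cxcl11 and the monocyte attractant Ccl7 rose by 9.78 ± 0.58 and 8.95 ± 0.76, values that were 11.51 without control replicate 2 and 9.97 without control replicate 3. The 2 chemokines that were not called were Cx3cl1 (2.66 ± 1.49) and Ccl24 (-0.31 ± 0.20).

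The other 5 of the largest rises joined surface molecules and interferon-induced genes. Cd69, an early activation marker of lymphocytes that is also found on other blood cells, had no count in any control library and 82.3, 78.2, 119.7 and 68.8 CPM in the allogeneic libraries. Against a floor of 3 counts over the control group, Cd69 was at least 4883-fold higher. Iigp1, an interferon-inducible GTPase that attacks the vacuoles of intracellular parasites, had 1 count over the controls, in replicate 2, and 31614 over the allogeneic libraries. The ratio for Iigp1 was 38388, with a counting interval from 6889 to 1516310.0, and without control replicate 2 it had no control count. The surface antigen Ly6a (Sca-1) read 0.347, 1.59, 0.490 and 0.362 CPM in the controls and 250.3, 343, 383 and 215 CPM in the allogeneic libraries. The scavenger receptor Cd36 read 1.21, 0.451, 0 and 1.94 CPM in the controls and 222, 284, 430.4 and 241 CPM in the allogeneic libraries. Both were far higher in every allogeneic library, with log2 fold changes of 8.77 ± 0.47 and 8.41 ± 0.73, which became 9.50 without control replicate 2 and 9.12 without control replicate 4. H2-Ea-ps, whose name marks a pseudogene in the reference strain, rose by 8.58 ± 0.53 (9.35 without control replicate 4). Reads shared between near-identical H2 genes, or lost to strain differences from the reference, make the values of single H2 genes uncertain, since the counting step is not given in the sources used here.

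Genes of MHC class II presentation, which shows peptides from engulfed proteins to CD4 T cells, rose almost together. Of 12 tested members 11 rose and 1 fell, with a median log2 fold change of 2.64. The summed share of the list went from 1.16% ± 0.0460 to 4.62% ± 0.231 of the counts. Most of it was the protease Ctss in both groups, at 1.09% in the controls and 2.90% in the allogeneic libraries. H2-Ab1, the beta chain of the I-A molecule, read 57.3, 48.0, 54.4 and 49.0 CPM in the controls and 1730.2, 1935, 2104 and 1544 CPM in the allogeneic libraries. Those values did not overlap, and the log2 fold change was 5.13 ± 0.12 (adjusted p = 1.1e-15). The exception was H2-Ob, part of an inhibitor of peptide loading, at -0.68 ± 0.14. Among genes of class I presentation and the immunoproteasome, which cuts and loads cytosolic peptides for CD8 T cells, 18 of 21 rose and 1 fell (median 1.67), with 3 called lower under library totals and 0 with an offset for GC content and exon length. H2-K1, a class I heavy chain, read 228, 205, 259 and 189 CPM in the controls and 5256, 6282, 5872 and 5311 CPM in the allogeneic libraries, H2-D1 rose by 4.6 ± 0.16 and H2-Q4 by 4.37 ± 0.15. The class I share of the counts went from 0.615% ± 0.0122 to 3.29% ± 0.158. Tap2, a subunit of the peptide transporter, was the member that fell, from 113 ± 11.7 to 71.4 ± 17.7 CPM, and H2-Q6 and H2-Q7 were listed at 0 in every library compared.

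Every tested gene of the type I interferon response was called higher, 35 of 35, with a median log2 fold change of 4.37 beside -0.07 for all tested genes. The groups did not overlap for any of them, and 34 remained called higher with library totals. Their share of the counts rose from 0.0804% ± 0.00435 to 0.746% ± 0.106. Ifitm3, which blocks virus entry, read 5.28, 4.99, 6.56 and 6.57 CPM in the controls and 634, 708, 1030.2 and 647 CPM in the allogeneic libraries, a log2 fold change of 7.01 ± 0.23 (adjusted p = 8.1e-13). Ifi27l2a rose by 6.09 ± 0.22. Bst2, or tetherin, which holds budding virus at the cell surface, had 46.3, 44.4, 35.3 and 35.4 CPM in the controls and 604, 643, 789 and 565 CPM in the allogeneic libraries, a log2 fold change of 4.01 ± 0.12. Of 27 tested genes of the interferon-gamma response 24 rose and 0 fell (median 3.62, with 2 called lower under library totals), and the 3 not called were Socs1 (2.42 ± 1.12), Wars (0.02 ± 0.13) and Irf8 (-0.19 ± 0.08). Among its GTPases, Ifi47 read 2.06, 1.81, 2.57 and 1.86 CPM in the controls and 102, 115, 141 and 83.1 CPM in the allogeneic libraries, and the guanylate-binding proteins Gbp7 and Gbp3 rose by 3.32 ± 0.12 and 3.63 ± 0.15.

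**Figure D3:**
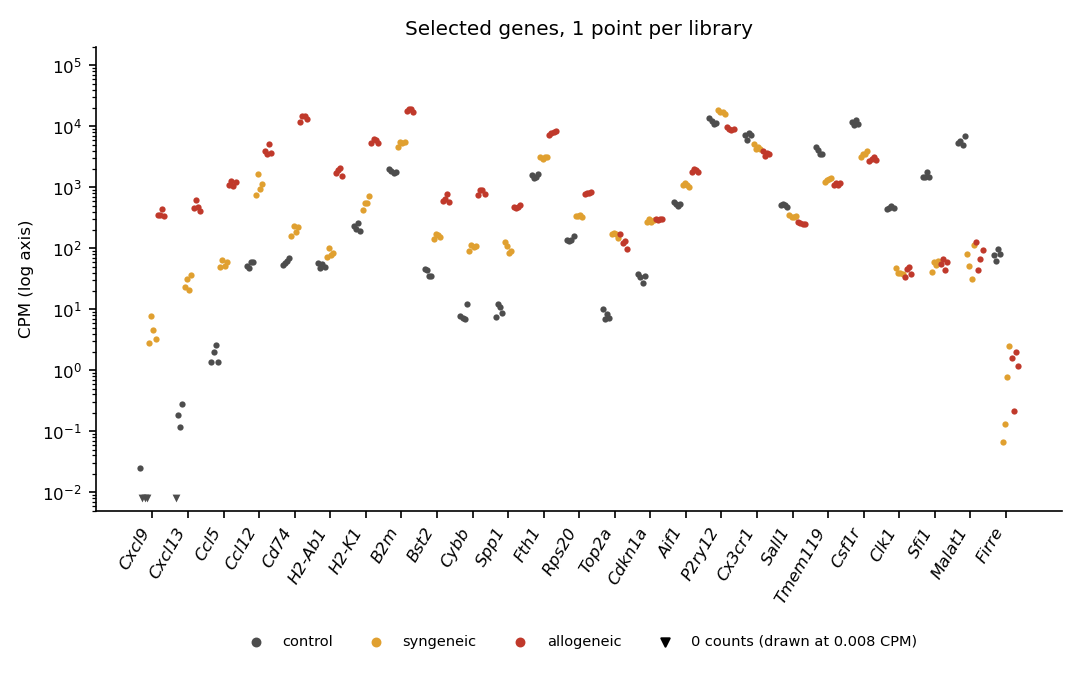
CPM (log axis) of 25 genes in each control (grey), syngeneic (orange) and allogeneic (red) library, 1 point per library, with triangles for 0 counts. For Cxcl9 through Spp1 the allogeneic points stand above both other groups, for Top2a and Cdkn1a the syngeneic and allogeneic points lie close together above the controls, and for Clk1, Sfi1, Malat1 and Firre both lie far below them.

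Promoter sequences were searched for binding motifs through which interferons act and for the NF-kappaB site. The 250 bases before each RefSeq start site (GRCm38.p6), available for 10140 of the 12695 tested genes, were scanned on both strands for the core of the interferon-stimulated response element, GAAA and GAAA with any 2 bases between them. It was found in 11.9% of 360 promoters of genes called at least 16-fold higher, in 4.09% of promoters of all genes called higher, in 2.15% of those called lower and in 2.72% of those of all tested genes. Over the whole table of promoters the share was 2.98%. The gamma-activated site TTCNNNGAA was in 8.33% of promoters of the genes at least 16-fold higher and in 5.93% of those of all tested genes. It was in 6.07% of those called higher, 6.05% of those called lower and 7.02% of the whole table. The NF-kappaB site, GGGA and TTTCC with any 1 base between them, was in 1.11% (4 of 360) and 0.403% of the first 2 sets. Its shares were 0.454%, 0.409% and 0.356% in genes called higher, called lower and the whole table. Overlapping matches were allowed, and a match describes letters only, not binding. None of the 11 promoters found for 9 of the 20 genes with the largest changes held any of the motifs. Of the largest rises only Cxcl9, Cxcl13 and Cd36 had an entry, and the remaining genes with an entry were among the largest falls. Of the other 29 named genes at least 16-fold higher, 20 had an entry, with 26 promoters in all, and 3 of these promoters, those of Cybb, Bst2 and 1 of the 2 start sites of Spp1, held the response element. These 3, chosen after their values were seen, are printed 5′ to 3′ with all matches in capitals.

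The Bst2 promoter (chr8:71537473-71537722, minus strand) carries a gamma-activated site that runs into a pair of overlapping response elements. Cybb (chrX:9469325-9469574, minus strand), the catalytic subunit of the phagocyte oxidase, has 3 separate response elements, and Spp1 (chr5:104434861-104435110, plus strand), which encodes osteopontin, has 1.
Bst2: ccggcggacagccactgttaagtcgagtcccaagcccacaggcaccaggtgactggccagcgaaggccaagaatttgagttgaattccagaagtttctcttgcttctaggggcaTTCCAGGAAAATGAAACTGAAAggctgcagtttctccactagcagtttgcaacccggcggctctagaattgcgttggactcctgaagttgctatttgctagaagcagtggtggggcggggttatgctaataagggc
Cybb: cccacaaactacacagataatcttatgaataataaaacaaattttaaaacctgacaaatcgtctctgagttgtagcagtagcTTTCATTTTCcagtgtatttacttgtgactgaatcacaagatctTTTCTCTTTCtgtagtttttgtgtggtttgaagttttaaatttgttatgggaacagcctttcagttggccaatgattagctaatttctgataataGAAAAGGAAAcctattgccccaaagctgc
Spp1: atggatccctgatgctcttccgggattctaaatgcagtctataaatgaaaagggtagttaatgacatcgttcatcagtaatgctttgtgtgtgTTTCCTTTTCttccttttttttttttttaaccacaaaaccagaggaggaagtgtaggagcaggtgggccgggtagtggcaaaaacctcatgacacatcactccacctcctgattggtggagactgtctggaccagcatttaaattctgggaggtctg

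Cybb read 7.88, 7.12, 6.92 and 12.3 CPM in the controls and 735, 904, 912 and 785 CPM in the allogeneic libraries, and rose by 6.61 ± 0.17 (adjusted p = 5e-15). Spp1 read 7.58, 12.1, 10.9 and 8.82 CPM in the controls and 476, 449.7, 474 and 513 CPM in the allogeneic libraries, and rose by 5.60 ± 0.16 (adjusted p = 6.2e-15). Both, like Bst2, were higher in every allogeneic library than in any control, and the syngeneic means were 104.8 ± 10.5 CPM for Cybb, 102 ± 19.0 for Spp1 and 158 ± 14.2 for Bst2.

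Inflammatory cytokines and complement genes rose in most tested cases. Of 16 cytokines and their inhibitors 13 rose and 1 fell (median 1.98). The fever cytokine Il1b read 12.1, 10.2, 9.27 and 12.4 CPM in the controls and 243, 218, 223 and 152 CPM in the allogeneic libraries, a log2 fold change of 4.25 ± 0.15, and Il1a rose by 2.03 ± 0.08. Il18bp, a secreted inhibitor of interleukin-18, rose by 6.0 ± 0.31, from 2.61 ± 0.895 to 167 ± 29.3 CPM. The 1 member that fell (2 with library totals) was Osm, oncostatin M, at -1.72 ± 0.41. The genes Il10, Il12a, Csf2, Csf3 and Ifng were at 0 in every library compared. In complement, the blood and tissue protein cascade that tags targets for phagocytes, 17 of 20 rose and 0 fell (median 1.39, with 2 called lower under library totals). Cfb, factor B of the alternative pathway, read 0.917, 0.929, 2.12 and 1.71 CPM in the controls and 176, 252, 198 and 154 CPM in the allogeneic libraries, a log2 fold change of 7.08 ± 0.30. The abundant C1q chains moved less, C1qa by 1.14 ± 0.06 and C1qb by 1.10 ± 0.07.

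Genes that microglia raise in neurodegenerative disease rose in 23 of 28 tested cases and fell in 3 (median 1.51). The 3 that fell were Trem2 (-1.46 ± 0.07), Cd68 (-0.53 ± 0.06) and Ctsd (-0.25 ± 0.07). Clec7a, a receptor for fungal glucans, read 18.1, 33.4, 24.3 and 23.7 CPM in the controls and 353, 397, 388 and 369 CPM in the allogeneic libraries, a log2 fold change of 3.92 ± 0.15. Lyz2, which encodes lysozyme, rose by 3.18 ± 0.09 and the tetraspanin Cd63 by 1.94 ± 0.08. The signalling adaptors Tyrobp and Fcer1g, which serve many phagocyte receptors, rose by 1.47 ± 0.07 and 1.45 ± 0.06. Of 28 tested phagocytic receptors and adaptors 18 rose and 7 fell, and the summed share of this list overlapped between the groups (1.13% ± 0.0307 and 1.11% ± 0.00991). Siglec1, a sialic acid receptor of macrophages, rose by 6.65 ± 0.34, while the scavenger receptor Stab1 fell by 1.46. In the list of the phagocyte oxidase and arginine metabolism 5 of 13 rose and 3 fell, a number that was 5 with library totals and 1 without control replicate 1 or allogeneic replicate 1. Its median was 0.13 and turned to -0.23 with library totals. Besides Cybb these included Ass1, which makes arginine from citrulline, at 0, 0.876, 0.568 and 0 CPM in the controls and 81.4, 98.2, 123 and 80.3 CPM in the allogeneic libraries, a log2 fold change of 8.02 ± 0.68 (8.76 without control replicate 2). The oxidase regulator Rac2 rose by 1.03 ± 0.07, and the cytosolic subunit Ncf1 fell by 0.25.

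Homeostatic microglia genes fell in 25 of 32 tested cases and rose in 4 (median -0.84), with 28 called lower under library totals and 26 with the GC and length offset. Their summed share of the counts fell from 15.2% ± 0.5004 to 8.16% ± 0.137, while the syngeneic share was 14.0% ± 0.440. Slco2b1, an organic anion transporter, read 1934, 1626, 2014 and 1636 CPM in the controls and 311, 331, 312 and 331 CPM in the allogeneic libraries. Adgrg1, an adhesion receptor, read 1870.2, 1811, 1988 and 1689 CPM in the controls and 439, 428, 361 and 404 CPM in the allogeneic libraries. Both were separated between the groups, with log2 fold changes of -2.49 ± 0.08 and -2.17 ± 0.08. Those called higher, chosen for naming after their values were seen, included Gpr84 (0.65 ± 0.12), Olfml3 (0.37 ± 0.06) and Siglech, of which the last turns negative with library totals, where 1 of the 4 stayed called. Of transcription factors of microglia and macrophages 7 of 30 were higher and 7 lower, no more often than all tested genes, with a median of 0.01. Their summed share of raw counts nevertheless fell from 0.505% ± 0.0242 to 0.364% ± 0.0177, without overlap. With library totals 3 were higher and 14 lower (median -0.35), and with the GC and length offset 11 were higher. Among them Sall1 read 508, 523, 512 and 473 CPM in the controls and 272, 255, 252 and 246 CPM in the allogeneic libraries.

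Markers of other blood and brain cells were examined in the same libraries, since the sort could have let some through and since fewer cells of a type cannot be told apart from less RNA per cell in bulk libraries. Genes listed as markers of marrow-derived macrophages that engraft the brain rose in 20 of 25 cases and fell in 3 (median 3.25), and their share of the counts went from 0.208% ± 0.0107 to 1.77% ± 0.137, of which Cd74 alone held 1.20% ± 0.109. That list holds Cd74, H2-Aa and Cybb, which are also in other lists described here. The monocyte gene Plac8 read 1.49, 1.27, 1.08 and 1.73 CPM in the controls and 73.9, 71.3, 103 and 63.1 CPM in the allogeneic libraries, and the matrix gene Fn1 rose by 7.16 ± 0.61 (8.05 without control replicate 2). Both stood higher in every allogeneic library than in any control. Of 14 tested monocyte markers 10 rose and 1 fell. Those that rose included Ly6c2 (5.31 ± 1.72) and Itgal (7.31 ± 0.89). The 1 that fell was Ccr2, the receptor that defines inflammatory monocytes, at -1.25 ± 0.39, from 9.49 ± 2.70 to 3.997 ± 2.51 CPM. Markers of border-associated macrophages rose in 9 of 13 cases, with Colec12 at 1.19 ± 0.12 and Lyve1 at 0 counts, and their share of the counts overlapped (0.124% ± 0.01000 and 0.133% ± 0.00339). Markers of dendritic cells rose in 3 of 9 cases and fell in 2 (4 with library totals), rates near those over all tested genes. Their share of the counts rose from 0.239% ± 0.00628 to 0.279% ± 0.00660, without overlap. Their median of 0.25 turned to -0.12 under library totals. The part of infiltrating or engrafted cells in the rises described was not tested.

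Of 14 T cell markers 4 had enough counts to test, and Ifng had none. Their summed share of raw counts was lower in the allogeneic libraries (0.0121% ± 0.00102 against 0.0144% ± 0.00118), without overlap (exact permutation p = 0.0286, adjusted p = 0.0338). That fall depends on the scaling, since of the 4 tested members 1 rose and 0 fell with trimmed-mean scaling. With library totals 1 rose and 1 fell. Cd2 had 0 CPM in the controls and 0.693, 0.641, 0 and 0 CPM in the allogeneic libraries, so that 2 allogeneic libraries were also at 0. Its call was lost when any 1 of 6 libraries was left out (adjusted p from 0.0649 to 0.0713), and at 46 allogeneic counts Cd2 was at least 18.6-fold higher than the floor of 3 counts over the controls. The kinase Lck (-0.67 ± 1.10) and the receptor Il7r (0.12 ± 0.11) were not called. Among cytotoxic cell markers Ncr1, Klra8, Gzma, Prf1 and Xcl1 were at 0 in every library compared. Klrb1c, the NK1.1 antigen, had no control counts and 0.977, 1.44, 1.77 and 0.854 CPM in the allogeneic libraries, at least 71.2-fold higher, while the lectin Klrd1 fell by 2.17, from 7.16 ± 1.42 to 1.59 ± 0.297 CPM. Of the 4 tested members 3 rose and 1 fell, with a median of 7.41, or 6.17 with Klrb1c at its bound. The share of that list, 0.00107% ± 0.000250 and 0.104% ± 0.0112 of the counts, is almost all Ccl5. B cell markers were called in both directions, with Cd22 up by 1.61 ± 0.30 and Bank1 and Tnfrsf17 at -0.75 ± 0.15 and -1.37 ± 0.23. The share of the B and plasma cell list fell from 0.0152% ± 0.00131 to 0.00958% ± 0.00109 of the counts, without overlap. Neutrophil genes gave 2 falls of 6 tested, near the rate over all tested genes (29.1% lower). Their share of the counts fell from 0.0681% ± 0.00700 to 0.0321% ± 0.00275, without overlap. Csf3r fell by 0.70, and the granule gene Ngp changed by -5.32 ± 2.05. The call of Ngp was lost without any 1 of control replicates 1, 3 or 4 or allogeneic replicates 1, 2 or 4, and its value was -4.70 without control replicate 4 and -11.13, which depends on the prior count, without allogeneic replicate 3, the only allogeneic library with a count. For Camp, which was not called (-2.57 ± 1.74), the value was -1.43 without control replicate 4 and -3.21 without allogeneic replicate 4. Red cell markers were not called. All 6 globin genes were at 0, Slc4a1 stood at 2.5 ± 2.06 (1.49 without allogeneic replicate 1). Control replicate 4 held all control counts of Slc4a1, and without it the gene was called higher (adjusted p = 0.0391; the fitted 8.25 depends on the prior count). Alas2 stood at -0.54 ± 0.93 (0.5 without control replicate 4).

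Markers of brain cells and of the choroid plexus, the tissue that makes cerebrospinal fluid, were also examined. Ttr, the thyroid hormone carrier made by the choroid plexus, read 72.9, 92.4, 37.4 and 12.2 CPM in the controls and 437, 586, 329.9 and 430.2 CPM in the allogeneic libraries, and 1312 ± 375 in the syngeneic libraries. Of 12 tested choroid plexus and ependyma markers 9 rose and 0 fell. Their share of the counts was 0.00254% to 0.0170% in the controls, 0.0358% to 0.0706% in the allogeneic libraries and 0.179% ± 0.0507 in the syngeneic libraries. Of the astrocyte markers 7 of 18 rose and 2 fell, yet their summed share was lower in the allogeneic libraries (0.0972% ± 0.00746 and 0.0712% ± 0.00553). Glul, the most abundant of them, fell from 543 ± 57.5 to 332 ± 28.5 CPM. The glutamate transporter Slc1a2 had 0.248, 0, 0.137 and 0 CPM in the controls and 3.66, 8.78, 10.5 and 8.06 CPM in the allogeneic libraries. S100b rose from 0.0789 ± 0.0802 to 3.93 ± 1.35 CPM. For neurons 3 of 13 rose and 1 fell, at shares of the counts that overlapped. In the main fit neither count exceeded the rate over all tested genes (28.2% higher and 29.1% lower). The 1 that fell was Syp (-1.82 ± 0.62). Map2 had no control counts and was at least 32.0-fold higher, at 0.914, 0.481, 0.629 and 0.294 CPM, and Snap25 rose from 0.874 ± 0.592 to 4.56 ± 1.97 CPM. DESeq2 called 5 neuronal and 11 astrocyte markers higher. Of the oligodendrocyte lineage 5 of 8 rose and 1 fell, and the count of rises was 2 to 3 when control replicate 1, 3 or 4 or allogeneic replicate 2, 3 or 4 was left out. Of the endothelial and mural markers 4 of 10 rose and 2 fell (2 rose when only the 8 compared libraries were fitted). Their share of the counts rose from 0.00451% ± 0.000565 to 0.0285% ± 0.00650, without overlap, and the list holds Ly6a, which was among the largest rises. The myelin genes Mobp and Mag stood at 3.42 ± 1.05 and -1.0 ± 0.18, and the endothelial adhesion gene Pecam1 at -1.34 ± 0.28. Several of these had few control counts, and leaving out 1 library moved them. Without control replicate 1 the log2 fold change went from 6.24 to 7.11 for Slc1a2, from 5.59 to 6.53 for S100b, from 3.42 to 4.30 for Mobp and from 5.14 to 5.82 for the choroid plexus receptor Prlr. Without control replicate 4, the only control library with a count of the neuronal gene Stmn2, its value went from 5.48 to 8.63, which depends on the prior count. The endothelial gene Ly6c1 had 3 counts over the controls and a ratio of 64.4 with a counting interval from 21.6 to 315, and all 3 counts came from control replicate 3. The part of choroid plexus or other brain cells in these values was not tested.

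**Figure D4:**
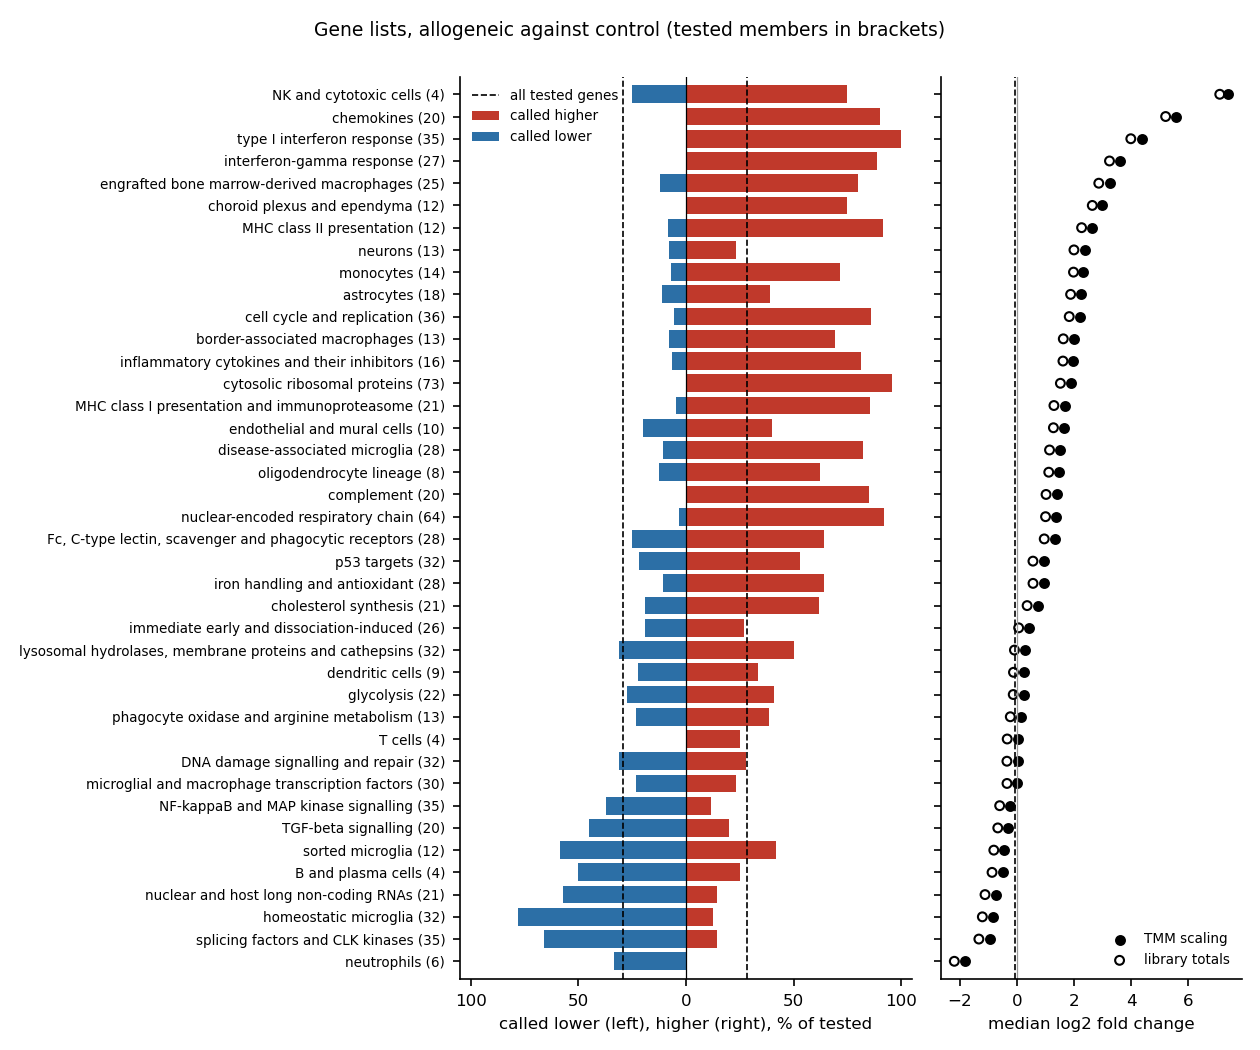
Share of the tested members of each gene list called lower (blue) and higher (red) on the left, and the median log2 fold change of the tested members on the right with trimmed-mean scaling (filled) and library totals (open); dashed lines give all tested genes. The cytotoxic cell list, with 4 tested members, chemokines and interferon responses stand at the top and splicing factors, homeostatic microglia and neutrophils at the bottom, and medians near 0, such as those of glycolysis and lysosomal genes, change sign with the scaling.

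Cytosolic ribosomal protein genes rose in 70 of 73 tested cases and fell in 0, with a median log2 fold change of 1.89 and a share of the counts that went from 1.93% ± 0.108 to 5.48% ± 0.204. The number called higher was 70 with library totals and 70 with the GC and length offset. Rps20 read 137, 131, 138 and 156 CPM in the controls and 790.3, 797, 819 and 846 CPM in the allogeneic libraries, and Rps19 and Rpl32 rose by 2.5 ± 0.07 and 2.28 ± 0.06. The 3 that were not called were Rpl30 (1.37 ± 1.08), Rpl34 (-0.60 ± 0.92) and Rps27 (-0.64 ± 0.76), and Rpl26 was listed at 0. Ribosomal protein genes have many processed copies in the genome, and how reads shared with these were counted is not given in the sources used here. Nuclear-encoded genes of the mitochondrial respiratory chain rose in 59 of 64 cases and fell in 2 (median 1.37, 0.90 with the offset). Cox4i1, a subunit of cytochrome c oxidase, read 252, 211, 217 and 247 CPM in the controls and 835, 828, 839 and 860.2 CPM in the allogeneic libraries, and Cox6a1 and Ndufa1 rose by 1.98 ± 0.07 and 2.31 ± 0.09. Rps20 and Cox4i1 were higher in every allogeneic library than in any control. Among the 2 that fell (4 with library totals) was Uqcrc1 (-0.44 ± 0.08). Genes encoded in the mitochondrial genome were not analysed here.

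Metabolic enzymes gave mixed counts. In glycolysis 9 of 22 rose and 6 fell (10 with library totals), and the median of 0.24 turned to -0.13 under library totals and to -0.02 without allogeneic replicate 3. Gapdh read 219.7, 193, 216 and 218 CPM in the controls and 763, 849, 1191 and 866 CPM in the allogeneic libraries, with Ldha and Pgk1 up by 1.82 ± 0.13 and 1.60 ± 0.14. Allogeneic replicate 3 was the highest in each of these 3 genes. In cholesterol synthesis 13 of 21 rose and 4 fell, or 10 and 6 with library totals. The summed share of that list overlapped between the groups (0.0505% ± 0.00229 and 0.0531% ± 0.00450, exact permutation p = 0.37). Among its members that rose, the isomerase Idi1 stood at 2.25 ± 0.30, the sterol sensor Insig1 at 1.79 ± 0.19 and Msmo1 at 1.21 ± 0.14. Iron and antioxidant genes rose in 18 of 28 cases and fell in 3 (median 0.93). The peroxidase Prdx1 and the superoxide dismutase Sod1 rose by 1.80 ± 0.07 and 1.76 ± 0.07, and the iron transporters Slc11a1, Slc11a2 and Slc40a1 were the 3 called lower, at -0.56, -0.84 and -0.99. Among lysosomal genes 16 of 32 rose and 10 fell (5 with the offset), with a median of 0.28 that turned to -0.09 under library totals, and the cathepsin Ctsl rose by 1.69 ± 0.07.

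Genes of the cell cycle and DNA replication rose in 31 of 36 tested cases and fell in 2 (median 2.20). Top2a, the topoisomerase of dividing cells, read 10.3, 6.90, 8.21 and 7.27 CPM in the controls and 173, 122, 133 and 98.1 CPM in the allogeneic libraries. The S-phase enzyme subunit Rrm2 read 7.91, 4.38, 5.19 and 6.0 CPM in the controls and 76.1, 100.2, 89.6 and 100.4 CPM in the allogeneic libraries. Cyclin D2 (Ccnd2), which drives entry into the cycle, read 8.28, 12.5, 10.3 and 16.3 CPM in the controls and 276, 315, 283 and 256 CPM in the allogeneic libraries. All 3 separated the groups, with log2 fold changes of 4.01 ± 0.17, 3.96 ± 0.21 and 4.58 ± 0.16. The syngeneic means were 167 ± 12.99, 92.1 ± 24.4 and 154 ± 12.02 CPM, and for Top2a and Rrm2 the difference between allogeneic and syngeneic libraries was not called (adjusted p = 0.12 and 0.99). Of 32 genes known as p53 targets 17 rose and 7 fell (median 0.93). Cdkn1a, which encodes the cell cycle inhibitor p21, read 37.4, 34.2, 27.1 and 34.5 CPM in the controls and 299.9, 289.7, 302 and 297 CPM in the allogeneic libraries, a log2 fold change of 3.16 ± 0.09, with a syngeneic mean of 287 ± 17.5 CPM. The cell death gene Bax rose by 2.56 ± 0.10, while the antiproliferative gene Btg2 fell by 2.18. Trp53 itself fell by 0.95, from 245 ± 21.9 to 127 ± 12.6 CPM. Of DNA repair genes 9 of 32 were higher (5 with library totals) and 10 lower, rates near those over all tested genes. Their summed share of raw counts nevertheless fell from 0.0970% ± 0.00335 in the controls to 0.0565% ± 0.00139 in the allogeneic libraries, without overlap. The repair scaffold Xrcc1 read 44.5, 44.4, 37.2 and 37.5 CPM in the controls and 10.7, 6.94, 4.52 and 7.27 CPM in the allogeneic libraries, a log2 fold change of -2.48 ± 0.24, and Parp2 fell by 0.81.

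Signalling genes were described by 3 lists. In the NF-kappaB and MAP kinase list 13 of 35 fell and 4 rose (median -0.23). With library totals 21 fell and 1 rose (median -0.61), and with the GC and length offset 8 rose. Rela, the p65 subunit of NF-kappaB, read 163, 128, 169 and 162 CPM in the controls and 48.3, 57.4, 62.9 and 55.0 CPM in the allogeneic libraries, a log2 fold change of -1.48 ± 0.11. Nfkb1 fell by 0.87 and the kinase Ikbkb by 1.22. In TGF-beta signalling, which keeps microglia in the resting state, 9 of 20 fell (5 with the GC and length offset) and 4 rose, with a median of -0.30 that became 0.13 with that offset. The co-receptor Eng fell by 1.63, and the receptor Tgfbr2 and the repressor Skil rose by 0.65 ± 0.07 and 0.71 ± 0.07. Immediate early genes, which are also induced when tissue is dissociated, rose in 7 of 26 cases (3 with library totals) and fell in 5 (median 0.43). The rate of rises was near that over all tested genes, with Ccl4 at 2.22 ± 0.16 and Zfp36 at -2.04 ± 0.14. Their summed share of raw counts fell from 0.233% ± 0.0227 in the controls to 0.169% ± 0.00674 in the allogeneic libraries, without overlap.

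With predicted and small RNA genes passed over, the 10 largest falls were in 5 long non-coding RNAs, in a pseudogene and in 4 protein-coding genes. Malat1, a long non-coding RNA of nuclear speckles, read 5389, 5802, 5007 and 7039.6 CPM in the controls and 126, 44.8, 65.6 and 93.7 CPM in the allogeneic libraries. It was 70.5-fold lower, with a log2 fold change of -6.14 ± 0.5 (adjusted p = 2.3e-06), and its share of the counts went from 0.659% ± 0.113 to 0.00725% ± 0.00320. The syngeneic libraries were also low, at 69.0 ± 36.1 CPM, and the difference between the transplanted groups was not called (adjusted p = 0.76). Neat1, the scaffold of paraspeckles, read 33.9, 46.1, 39.3 and 37.6 CPM in the controls and 0.126, 0.0801, 3.29 and 0.294 CPM in the allogeneic libraries, a log2 fold change of -5.36 ± 1.04 that became -7.86 without allogeneic replicate 3. Firre, an X-linked nuclear RNA, read 77.8, 62.2, 97.8 and 79.6 CPM in the controls and 1.61, 0.214, 1.97 and 1.18 CPM in the allogeneic libraries. Xist, which coats the inactive X chromosome, fell by 2.76, from 184 ± 48.2 to 27.0 ± 7.6 CPM. The snoRNA host Snhg20 fell by 5.08 and Ggnbp2os by 4.89. Of 21 tested long non-coding RNAs of the list 12 fell and 3 rose (median -0.75). Over all genes, 174 of 494 tested genes annotated as long non-coding fell and 35 rose, 20 of 28 small nucleolar RNA genes fell and none rose, and 26 of 40 microRNA genes fell and 3 rose. Reads on a microRNA or small nucleolar RNA gene can come from its host transcript, and antisense or overlapping genes cannot be told apart where strand use in counting is not given.

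Protein-coding genes among the largest falls were Hdac10, Taf1c, Sfi1 and Rgl2. Sfi1, a centrosome gene, read 1469, 1456, 1787 and 1473 CPM in the controls and 55.0, 66.5, 44.6 and 60.6 CPM in the allogeneic libraries, 27.3-fold lower. Hdac10, a polyamine deacetylase, read 61.3, 59.97, 76.9 and 52.99 CPM in the controls and 1.39, 1.17, 1.57 and 2.21 CPM in the allogeneic libraries, 39.6-fold lower. Every allogeneic library lay far below every control for both. Rgl2, an activator of Ral GTPases, fell by 4.40, Taf1c, a factor of RNA polymerase I, fell by 5.03 (5.91 without allogeneic replicate 2), and the pseudogene Tmem181b-ps fell by 4.36. The syngeneic means were 53.9 ± 9.47 CPM for Sfi1 and 2.72 ± 1.52 for Hdac10. Splicing factors and CLK kinases, which act in the nucleus, fell in 23 of 35 cases and rose in 5 (median -0.96, -0.89 with the GC and length offset). Clk1, a kinase of splicing factors, read 444, 455, 488 and 459.9 CPM in the controls and 34.0, 46.1, 49.4 and 37.2 CPM in the allogeneic libraries, a log2 fold change of -3.47 ± 0.12. The splicing proteins Luc7l3 and Rbm39 fell by 2.43 and 1.94. The 5 that were called higher (2 with library totals) were the ribonucleoproteins Hnrnpu, Hnrnpk, Hnrnpd, Hnrnpm and Hnrnpa2b1, at log2 changes from 0.30 to 0.76.

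Calls also followed properties of the transcripts. Across 12613 genes the log2 fold change correlated with exon GC content at Spearman's rho = -0.28 and with exon length at rho = -0.10, values over genes, which are not independent replicates. In the quintile of genes lowest in GC, 43.2% were called higher and 13.8% lower, and in the quintile highest in GC 14.7% and 43.0%. In the shortest quintile by exon length 38.4% were called higher and 18.6% lower, and in the longest 22.99% and 31.5%. With the GC and length offset, 3411 genes (27.0%) were called higher and 3223 (25.6%) lower. The part of RNA quality, of nuclear RNA or of library preparation in these trends was not tested.

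**Figure D5:**
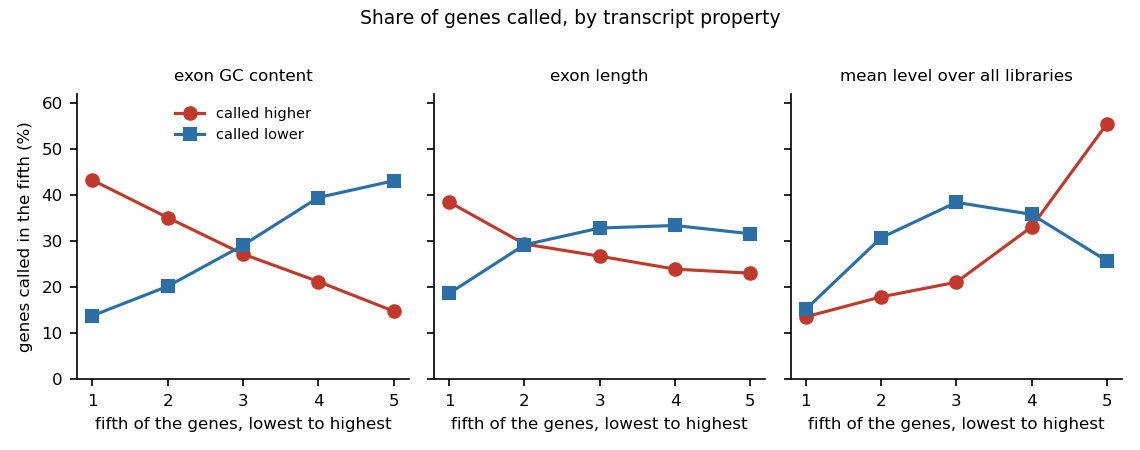
Percentage of genes called higher (red) and lower (blue) in quintiles of the tested genes ordered by exon GC content, exon length or mean level. From the lowest to the highest GC quintile the share called higher falls from 43.2% to 14.7%, and the highest-level quintile has 55.4% called higher and 25.7% lower.

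Some genes were described because the step from control to syngeneic libraries and the step from syngeneic to allogeneic libraries were called in opposite directions, and the contrast with the controls shows their sum. From those whose mean log2 CPM was 4 or more, the 6 whose smaller step was largest were taken among genes with a called net change, and likewise 6 among genes without one, so that these counts were set by that choice. Of all tested genes 52.1% were called in the first of these steps (26.4% higher, 25.6% lower) and 16.5% in the second (10.1% higher, 6.38% lower). Gas5, the host of small nucleolar RNAs, read 249.99, 245, 293 and 276 CPM in the controls, 39.8 ± 2.04 in the syngeneic and 115, 113, 114 and 129 CPM in the allogeneic libraries. It was -2.74 for syngeneic against control, 1.57 for allogeneic against syngeneic and -1.18 ± 0.08 for allogeneic against control, all 3 called. Enpp2, which makes lysophosphatidic acid and is also on the choroid plexus list, went from 29.4 ± 15.6 CPM in the controls to 374 ± 99.4 in the syngeneic and 119.8 ± 43.2 in the allogeneic libraries. Hpgd, which degrades prostaglandins, had 84.5 ± 12.6, 205 ± 20.5 and 65.9 ± 11.3 CPM in the same order. Its net change of -0.36 ± 0.13 lost its call without control replicate 1, control replicate 4 or allogeneic replicate 2 (adjusted p = 0.081, 0.051 and 0.0876). The helicase subunit Mcm4, at 25.5 ± 8.57, 86.4 ± 4.53 and 35.9 ± 6.89 CPM, lost its call of 0.49 ± 0.19 without control replicate 1 or 2 or allogeneic replicate 2 or 4 (adjusted p from 0.0994 to 0.14). Xist and Tap2 complete the 6 with a called net change, with syngeneic means of 8.58 ± 3.39 and 32.6 ± 8.76 CPM below both other groups.

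The 6 taken without a called net change include 2 receptors. The orphan receptor Adgrg5 read 66.3, 42.0, 65.3 and 53.4 CPM in the controls and 50.1, 43.2, 79.8 and 51.0 CPM in the allogeneic libraries, which overlap, and 16.8 ± 8.30 CPM in the syngeneic libraries. Its net change was -0.02 ± 0.27 (adjusted p = 0.96). Gpr35, a receptor for tryptophan metabolites, had 29.5 ± 9.29, 9.07 ± 2.96 and 30.7 ± 3.91 CPM in the control, syngeneic and allogeneic groups, and the helicase Mov10 had 22.2 ± 4.82, 9.81 ± 2.19 and 19.0 ± 2.26 CPM. Bach2os was also lower in the syngeneic group, at 7.81 ± 1.67 CPM against 23.9 ± 4.37 and 22.6 ± 3.54. Eya4, at 19.7 ± 2.42, 41.5 ± 10.2 and 21.4 ± 6.52 CPM, and Hmga2-ps1, at 42.1 ± 6.75, 85.6 ± 8.47 and 41.2 ± 6.11 CPM, were higher in the syngeneic group. The 3 contrasts share libraries, so their values are given side by side only.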

How the data were processed

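RNA of sorted microglia was sequenced from 12 mice, 4 a group. The deposited table holds raw counts of reads per gene symbol, whole numbers with no normalization. Per the submitters' processing notes, Trimmomatic 0.36, STAR 2.5.2b and the mouse build mm9 were used. How reads were counted, on which annotation and with which use of strand, is not given here by any source, so genes that overlap, lie antisense or have near-identical copies are uncertain. Groups follow the sample labels.

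Genes passing edgeR's filterByExpr (minimum count 10) were fitted with its quasi-likelihood test over all 12 libraries, with trimmed-mean (TMM) scaling, and adjusted by Benjamini-Hochberg at 0.05 (edgeR 4.0.16, limma 3.58.1, DESeq2 1.42.0, R 4.3.3). The SE of a log2 fold change is its size divided by the square root of the test's F. CPM is scaled by the same factors, while shares are percent of a library's raw counts. Shares were compared by exact permutation tests with scipy 1.17.1. Both tests take the library of 1 mouse as the unit, and edgeR estimates the spread within groups over all 12 libraries. In simulated counts over 12355 genes for allogeneic against control, 59% of genes changed by a log2 of 1 and 82% of those changed by 2 were called, and 2.08% of calls were false. Only a small part of the genes was changed there, equally upward and downward, while 57.3% were called in the real contrast. Those figures therefore do not give the rate of false calls in the real contrast.

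Depth was 32652208 to 45439607 counts in the compared libraries, and intervals and floors cover counting error only. Exon length and GC content came from the GENCODE vM21 annotation, matched by symbol. Genes encoded in the mitochondrial genome were not analysed here.

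Named genes are the 10 largest rises and 10 largest falls that did not overlap between groups (mean log2 CPM of at least 2, predicted, mitochondrial and small RNA genes passed over), the 15 most abundant of each group, the 10 largest gains and 10 largest losses of CPM on library totals, up to 3 members of each gene list with the smallest p, 6 called and 6 uncalled genes with opposite steps (mean log2 CPM of at least 4), and the sort markers; 2 of these genes are not reported here. Further list members, such as those called against the direction of their list or not called, were named after their values were seen. Members and lists were chosen with earlier results of these data known. Alternatives tried were other scalings, filters, tools, a fold limit, the 8 compared libraries alone, a replicate block, leaving out each library, other definitions of the most abundant genes, and a GC and length offset added after seeing the data.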

Additional observations from a re-analysis of the deposited data

Results flagged for a closer look

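A value was singled out where 1 library lay so far from the other 3 of its group that the gap to the nearest of them, over the range of the group, passed Dixon's 95% critical value. Chance alone flags about 1 in 20 groups, and 32 of the 398 groups examined were singled out.

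Several of these are low control values with counts in 1 library. Cxcl9 stood at 0.0248 CPM in control replicate 1 and at 0 in the other controls, Iigp1 at 0.0265 CPM in control replicate 2 and 0 elsewhere, Ly6c1 at 0.0588 CPM in control replicate 3 and Stmn2 at 0.103 CPM in control replicate 4. Cxcl11 had 0.637 CPM in control replicate 2, where the other controls reached 0.0784, and Ly6a had 1.59 CPM in the same library against 0.347 to 0.490. S100b had 0.198 CPM in control replicate 1 against 0.0265 to 0.0517, and H2-Ea-ps 5.17 CPM in control replicate 4 against 1.12 to 1.49. Ngp had 0.686 CPM in allogeneic replicate 3 and 0 in the other 3.

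Control replicate 4 was high for 2 red cell genes, with Alas2 at 14.7 CPM against 2.38 to 3.0 and Slc4a1 at 0.672 CPM against 0. The red cell share there was 0.00179% of the counts against 0.000261% to 0.000346%, and Sod1 stood at 189 CPM against 167 to 168. In control replicate 1, Msmo1 read 58.6 CPM against 40.7 to 42.3, the 50 and 100 most abundant genes held 31.5% and 37.4%, the astrocyte list 0.108% and the chemokines 0.0396% of the counts. Control replicate 2 was lowest for Rela (128 CPM), Cox6a1 (124 CPM) and Gapdh (193 CPM), and control replicate 3 was highest for Sfi1 (1787 CPM).

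Allogeneic replicate 3 was apart for 6 further genes. Cxcl9 read 441 CPM against 333 to 351, Neat1 3.29 CPM against 0.0801 to 0.294, Actb 34966 CPM against 29981 to 30762 and Pecam1 9.84 CPM against 5.61 to 6.09. Skil was highest there at 742 CPM and Cd63 lowest at 931 CPM. Ctsl was highest in allogeneic replicate 2 at 1653 CPM. In allogeneic replicate 4, Gas5 was highest at 129 CPM, the astrocyte list held 0.0794% and the cell cycle list 0.155% of the counts, the last of these the lowest of the group.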

How the results depend on the processing

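The numbers of genes called higher and lower stayed within 1.5 times of 3576 and 3697 in every alternative but 1, the test against a 1.5-fold limit, which called 2182 and 2255. They were 3793 and 3684 with DESeq2, 3622 and 4026 with limma-voom, 3406 and 3665 with only the 8 compared libraries, and 3392 to 3496 and 3468 to 3623 when 1 library was left out. Replicate numbers did not pair the libraries: residuals correlated at -0.01 to 0.03 between same-numbered libraries and at -0.04 to 0.04 between others, and with the replicate block 3512 genes were higher and 3688 lower. Counted per kilobase of exon, the shares of the 10, 50, 100 and 500 most abundant genes differed by 2.41, 5.02, 6.47 and 8.99 percentage points, against 1.12, 2.82, 4.21 and 6.38 in raw counts. Of 154 named genes 125 kept direction and call in each of the 18 alternatives that gave them a value, which the filter of 1 CPM did for 147 genes, the fewest. Directions turned with library totals for Il7r (-0.25), Gpr35 (-0.31), Eya4 (-0.25), Siglech (-0.12) and Itgam (-0.17), and for the medians of dendritic cell markers (-0.12), lysosomal genes (-0.089), glycolysis (-0.13) and the phagocyte oxidase list (-0.23). With the GC and length offset they turned for Ctsd (0.012), Fscn1 (0.0067), Il7r (-0.17), Adgrg5 (0.35), Eya4 (-0.10), Mov10 (0.52), Siglech (-0.023) and the TGF-beta median (0.13). With size factors of DESeq2 or its test, Adgrg5 (0.0182 and 0.0184) and Hmga2-ps1 (0.00631 in both) turned. The dendritic cell median was -0.034 with the replicate block and the red cell median -0.53 in the 8 libraries alone. Leaving out 1 library gave ranges over 0 for Alas2 (-0.85 to 0.50), Adgrg5 (-0.24 to 0.088), Gpr35 (-0.12 to 0.23), Bach2os (-0.16 to 0.030), Hmga2-ps1 (-0.13 to 0.068), Eya4 (-0.047 to 0.30), glycolysis (-0.024 to 0.43) and the phagocyte oxidase list (-6.3e-05 to 0.19). The cause of these turns was not tested. A share without mitochondrially encoded genes was not run, since none is in the table used. Genes with few control counts are limited by depth.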

Other observations

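The redistribution of counts was spread unevenly over genes. Between the group means 6214 genes gained share and 11368 lost it, and 62 genes held 50% of the gain against 162 for 50% of the loss. Among protein-coding genes 3512 of 12006 were called higher and 3445 lower. By mean level, 13.5% of the lowest quintile of tested genes and 55.4% of the highest quintile were called higher.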
